A study of Rattus norvegicus with 16 samples.

Results

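Macrophages of the thymus were compared with macrophages of the spleen in male Lewis rats, using 4 of the 16 arrays of the series, 2 from each organ. Both groups were live CD45+ CD45R- cells positive for HIS36 (the antibody recognises rat Cd163), sorted after enrichment from digested organs with beads against CD11b/c. The same enrichment was used in both organs, and the label of the array decided its group. The other 12 arrays hold conventional dendritic cells (DCs) of type 1 and type 2 and CD103- DC-like cells of the same organs. They entered the comparison of macrophages with DCs. They also entered the estimate of spread behind every standard error and p-value, which all 8 groups shared. All 23188 transcript clusters of the array were tested, so no gene was chosen for entering the comparison. Whether the 2 replicates of a group are different animals is not in the labels. The p-values therefore cover the spread between replicate arrays, pooled over macrophages and DCs, and no more. That spread may be technical.

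Resident macrophages clear dying cells and adapt to the organ they live in. In the thymus most developing T cells die by selection, and macrophages engulf them. In the splenic red pulp, macrophages take up aged red blood cells and return their iron, a task that uses haem oxygenase and the iron exporter ferroportin.

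Values are log2 signals, and every difference below is thymus minus spleen on that scale, with the model's standard error (SE). Array medians lay between 5.88 and 5.91 on the 4 macrophage arrays. Clusters of olfactory receptors, genes of the nose, served as a background, and their 95th percentile was 5.81. The means of 46.8% of the clusters lay below it in both macrophage groups. Where 1 group's mean was under that level, the difference is a bound, the distance of the other group from 5.81. The root mean square log2 difference over all clusters was 0.402 between the thymic replicates, 0.373 between the splenic ones and 0.788 between the means of the organs.

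Both sorts carried the genes that define macrophages. Cd163, the sort antigen and haemoglobin receptor, read 16.56 and 16.56 on the thymic arrays and 16.15 and 15.80 on the splenic arrays (0.58 ± 0.49, adjusted p = 0.562). Csf1r, the receptor for the macrophage growth factor, read 15.63 and 15.42 against 16.07 and 15.66, and Cd68, a lysosomal glycoprotein of phagocytes, 18.64 and 18.67 against 18.33 and 18.21. Neither passed the test (adjusted p = 0.53 and 0.274). Of 22 macrophage markers measured, 5 were higher in the thymus, 2 were lower and 15 were not called, and 1, the scavenger receptor Marco, lay below background on all 4 arrays (4.39 and 4.63 against 4.64 and 4.75).

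Receptors for dying cells, sugars and folate were among the called macrophage markers. Timd4, a receptor for phosphatidylserine on dying cells, read 11.31 and 11.01 in the thymus and 8.42 and 8.12 in the spleen (2.89 ± 0.27, adjusted p = 5.54e-07). The mannose receptor Mrc1 was higher by 1.64 ± 0.31 (adjusted p = 0.000952), the folate receptor Folr2 by 2.04 ± 0.56, the hyaluronan receptor Lyve1 by 1.68 ± 0.50 and Adgre1, which encodes F4/80, by 1.41 ± 0.36 (adjusted p = 0.0189, 0.0299 and 0.0127). Lower in the thymus were Vsig4, a complement receptor (-1.88 ± 0.31, adjusted p = 0.000294), and the fractalkine receptor Cx3cr1 (-1.21 ± 0.28, adjusted p = 0.00532). Lyve1 differed between the splenic replicates, 12.84 against 10.87, both below the thymic 13.85 and 13.21. Several of these calls depended on single arrays or on the fit. With trend and robust moderation and every array kept, the calls of Folr2 (adjusted p = 0.0749) and Lyve1 (adjusted p = 0.0629) were lost and the list had 3 higher members. The call of Folr2 was also lost when any of the 4 arrays was left out (adjusted p = 0.0523 to 0.145). Lyve1 lost its call without thymus replicate 1 (0.226), thymus replicate 2 (0.0556) or spleen replicate 2 (adjusted p = 0.49). The calls of Adgre1 (adjusted p = 0.112 and 0.125) and Cx3cr1 (0.0677 and 0.095) were lost without thymus replicate 2 and without spleen replicate 2. The list's higher members numbered 3 without thymus replicate 1 and 2 without thymus replicate 2 or spleen replicate 2, and its lower members numbered 1 without thymus replicate 2 or spleen replicate 2.

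At an adjusted p under 0.05 thymic macrophages had 1441 of the 23188 clusters higher (6.21%) and 1745 lower (7.53%), 13.7% in either direction, and 2240 of these 3186 differed by at least 2-fold. Among the 12332 clusters above background in at least 1 macrophage group, 23.8% were called, 10.7% higher and 13.1% lower. Most of the gene lists below hold mainly expressed genes, and their counts are best set against these shares. Some lists have many members below background in both groups: 24 of 52 amine and lipid receptors, 8 of 14 epithelial and 7 of 14 platelet genes. Their counts include members that cannot be measured. The lists were chosen with earlier results of these data known, so a count above these shares is not independent evidence. The median difference was 0.045 over all clusters and 0.06 over those above background. Without thymus replicate 2, spleen replicate 1 or spleen replicate 2, 904, 938 and 833 clusters were called higher.

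**Figure D1:**
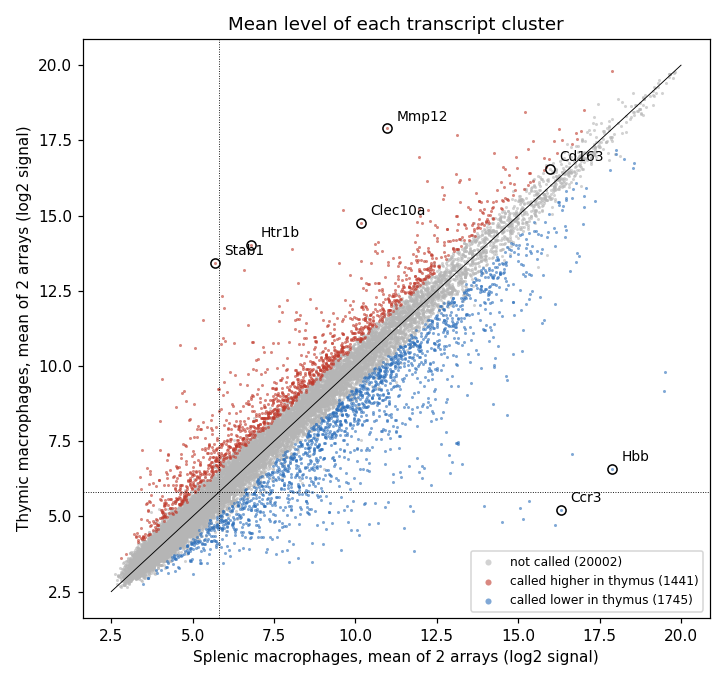
Each point is a transcript cluster at its mean over the 2 splenic arrays (horizontal axis) and the 2 thymic arrays (vertical axis), in log2 signal. Red points are the 1441 clusters called higher in the thymus and blue points the 1745 called lower, the solid line marks equal levels and the dotted lines mark the background of 5.81. Stab1, Htr1b, Mmp12 and Clec10a lie above the line, Ccr3 and Hbb far below it, and Cd163 near it.

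The largest differences toward the thymus were in a scavenger receptor, a serotonin receptor and a protease. Stab1 encodes stabilin-1, a receptor that takes up modified lipoproteins and binds phosphatidylserine. It read 13.93 and 12.91 on the thymic arrays against 6.39 and 4.98 on the splenic arrays, a difference of at least 7.61 (adjusted p = 2.45e-09). Htr1b, a serotonin receptor that lowers cyclic AMP, read 14.30 and 13.77 against 7.18 and 6.43 (7.23 ± 0.31, adjusted p = 2.76e-11). Mmp12, the macrophage elastase, read 17.80 and 18.01 against 10.75 and 11.19 (6.93 ± 0.35, adjusted p = 2.3e-10). No thymic array came within 5 log2 units of a splenic one for any of these genes. Clec10a, a lectin for galactose and N-acetylgalactosamine, read 14.92 and 14.59 against 10.48 and 9.85 (4.59 ± 0.32, adjusted p = 1.5e-08).

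Chemokines, adhesion molecules and enzymes made up the rest of the 12 largest. Ccl17, a ligand of Ccr4, read 13.73 and 12.66 against 6.49 and 6.64 (6.63 ± 0.32, adjusted p = 1.35e-10). Ccl12, a ligand of Ccr2 in the mouse, read 14.26 and 13.51 against 8.29 and 7.79 (5.84 ± 0.29, adjusted p = 1.51e-10). Pdpn, the sialoglycoprotein podoplanin, read 12.41 and 12.23 against 6.32 and 5.48 (6.42 ± 0.31, adjusted p = 1.15e-10). In each case both thymic arrays lay above both splenic arrays. The dipeptidase Cndp1 was higher by 5.99 ± 0.27, the coagulation factor subunit F13a1 by 5.56 ± 0.66, the asialoglycoprotein receptor subunit Asgr2 by 4.99 ± 0.32 and the membrane collagenase Mmp14 by 4.87 ± 0.27. The calcium-binding protein Chp2 was higher by at least 5.71 and the membrane fission protein Dnm1 by at least 4.89.

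Globin genes and a chemokine receptor headed the splenic side. Hbb, a beta globin gene, read 17.91 and 17.88 on the splenic arrays and 7.56 and 5.61 on the thymic arrays (-11.31 ± 0.43, adjusted p = 3.88e-12). Hba1 read 19.40 and 19.59 against 10.49 and 9.11 (-9.70 ± 0.35, adjusted p = 1.84e-12), and Hba-a1 and Hbb-b1 were lower in the thymus by at least 9.53 and 9.34. The globin genes have near-identical copies, so how signal divides among these clusters is uncertain. Ccr3, a receptor for eotaxins best known from eosinophils, read 16.27 and 16.34 in the spleen and 5.55 and 4.89 in the thymus, lower by at least 10.49 (adjusted p = 2.03e-14). Both thymic arrays were below background, and the splenic replicates differed by under 0.1.

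The other genes of this set have varied roles. Gfra2, a receptor for neurturin, read 14.21 and 13.71 in the spleen and 5.18 and 5.49 in the thymus, lower by at least 8.15. Ccr1l1, a relative of the chemokine receptors, read 13.54 and 13.01 against 6.61 and 6.89 (-6.53 ± 0.30, adjusted p = 6.26e-11). The membrane raft protein Mal was lower in the thymus by 6.47 on the log2 scale, the ribonuclease Rnase6 by 6.28, the cysteine protease inhibitor Stfa2 by 6.17 and the sorting receptor Sorl1 by 5.83, and the lectin Clec4d by at least 5.88. None of the 24 largest differences lost its call under any alternative tried.

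**Figure D2:**
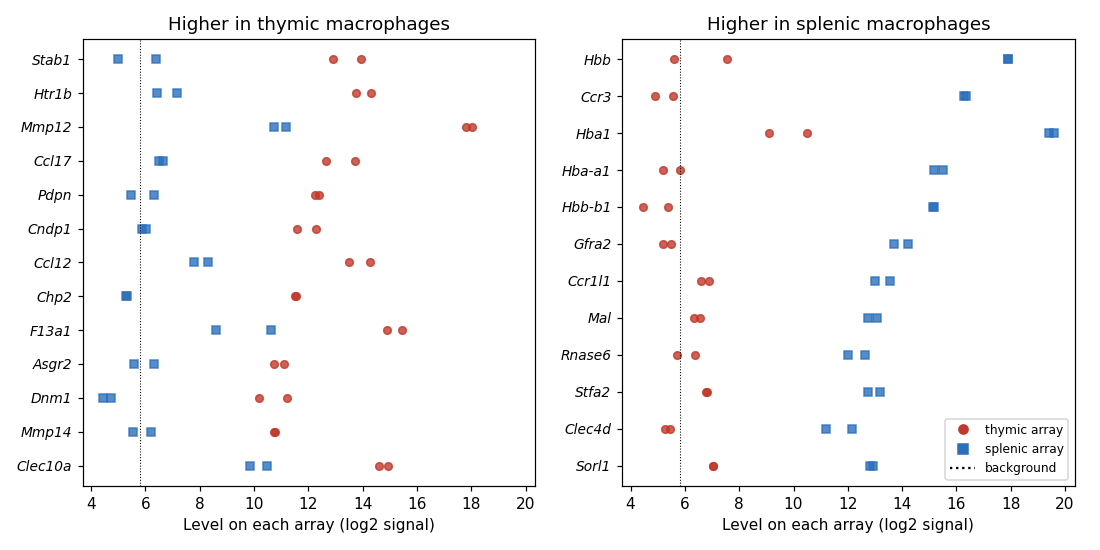
Level on each array (horizontal axis, log2 signal) of the 12 genes with the largest difference in each direction and of Clec10a. Circles are the 2 thymic and squares the 2 splenic arrays, and the dotted line marks the background of 5.81. In every gene shown the thymic and splenic arrays are apart, and Stab1, Hbb, Hba1 and F13a1 show the widest gaps between replicates.

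Receptors and bridging molecules for dead cells moved both ways. Of 36 genes of dead cell uptake, 10 were higher and 7 lower in the thymus, with a median of 0.25. Beside Stab1 and Timd4, the bridging ligands Gas6 and Pros1, which link phosphatidylserine to the receptors Axl, Tyro3 and Mertk, were higher by 3.44 ± 0.35 and 2.22 ± 0.24 (adjusted p = 1.53e-06 and 2.69e-06). Gas6 read 14.03 and 14.23 in the thymus and 11.19 and 10.20 in the spleen, with no overlap. Mertk itself read 12.41 and 12.38 against 11.74 and 10.89 and was not called (1.08 ± 0.38, adjusted p = 0.0683), though it was called in a fit to the 4 macrophage arrays alone (adjusted p = 0.0271) and without spleen replicate 1 (adjusted p = 0.0397). Lower in the thymus were the integrin subunit Itgb3 (-3.13 ± 0.32), the scavenger receptor Cd36 (-1.94 ± 0.28), the small GTPase Rac2 (-1.45 ± 0.24) and the matrix protein Thbs1 (by at least 2.00).

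Among 21 scavenger receptors measured, 5 were higher and 3 lower. Colec12, a collectin that binds modified lipoproteins, read 10.91 and 10.74 in the thymus and 5.91 and 6.10 in the spleen (4.82 ± 0.26, adjusted p = 4.2e-10), and Scarb2, a receptor of the lysosomal membrane, was higher by 1.64 ± 0.27. Olr1, a receptor for oxidized lipoprotein, was lower by 4.14 on the log2 scale (SE 0.35, adjusted p = 1.68e-07) and Msr1, which binds modified lipoproteins, by 1.63 (SE 0.24, adjusted p = 0.000104). Cd5l, a secreted macrophage protein, read 16.73 and 17.45 against 17.75 and 17.78 (adjusted p = 0.447).

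Lipid and cholesterol genes moved both ways. Of 38 such genes, 13 were higher (34.2%) and 7 lower (18.4%), with a median of 0.23. Abca1, which exports cholesterol to apolipoproteins, read 15.25 and 15.09 in the thymus and 12.72 and 11.76 in the spleen (2.93 ± 0.32, adjusted p = 3.84e-06). The phospholipid transfer protein Pltp read 18.41 and 18.45 against 15.32 and 15.12 (3.21 ± 0.44), and Ch25h, which makes 25-hydroxycholesterol, was higher by 3.38 ± 0.34. Apoc1 was higher by at least 3.77 on 1 of its 2 clusters, where the thymic replicates differed (10.42 and 8.73), while the other cluster differed by 0.43 and was not called. On the splenic side were Srebf2, the transcription factor that drives cholesterol synthesis (-2.09 ± 0.26), the lipid droplet protein Plin2 (-1.78 ± 0.24) and the fatty acid carrier Fabp4 (-1.78 ± 0.35). The lower members numbered 4 without thymus replicate 2.

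Lysosomal genes leaned toward the thymus, with 11 of 34 higher, 1 lower and a median of 0.59. Hexa, which helps to break down gangliosides, was higher by 2.08 ± 0.25 (adjusted p = 1.12e-05). Dnase2, the acid nuclease that digests the DNA of engulfed cells, read 15.23 and 15.73 against 13.88 and 13.68 (1.70 ± 0.25, adjusted p = 0.000109), and the channel Mcoln1 was higher by 1.67 ± 0.22. In none of these did the organs overlap. Gla, alpha-galactosidase, was the exception, lower by 1.88 on the log2 scale (SE 0.23, adjusted p = 1.21e-05). The higher members numbered 6 without thymus replicate 2 and 7 without spleen replicate 2, and under the other alternatives up to 3 members were lower.

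Iron recycling genes gave 4 higher and 6 lower of 28, with a median of -0.20. Hmox1, haem oxygenase, read 16.33 and 16.84 in the thymus and 18.56 and 18.49 in the spleen (-1.94 ± 0.33, adjusted p = 0.000346). Slc11a1, a metal transporter of the phagosome, read 12.36 and 12.64 against 15.48 and 15.39 (-2.94 ± 0.31, adjusted p = 2.42e-06), and Slc48a1, the haem transporter, was lower by 1.72 on the log2 scale (SE 0.25, adjusted p = 9.56e-05). Treml4, a receptor for dead cells described on mouse splenic macrophages, was lower by 2.06 (SE 0.28, adjusted p = 4.5e-05). These splenic arrays were above both thymic arrays in each gene.

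Spic and Slc40a1 of this list, and the macrophage marker Siglec1, did not pass the test. Spic, the transcription factor that mouse red pulp macrophages need, read 13.45 and 13.85 against 14.44 and 14.54 (-0.84 ± 0.35, adjusted p = 0.146). The iron exporter Slc40a1 read 16.76 and 17.20 against 18.09 and 18.17 (-1.15 ± 0.60, adjusted p = 0.276). Siglec1, a sialic acid receptor of lymphoid tissue macrophages, read 12.24 and 11.80 against 13.67 and 13.60 (-1.61 ± 0.59, adjusted p = 0.0836). The thymic arrays were lower than the splenic arrays in all 3 genes, and a fit to the 4 macrophage arrays alone called each of them (adjusted p = 0.0378, 0.00751 and 0.000779). The adhesion molecule Vcam1 was lower by 1.04 (SE 0.29, adjusted p = 0.0223), a call lost without thymus replicate 1 (adjusted p = 0.332) or spleen replicate 1 (adjusted p = 0.196). Higher in the thymus were the haem importer Flvcr2 (2.11 ± 0.37), the iron transporter Slc11a2 (1.71 ± 0.37), haptoglobin (Hp, 1.40 ± 0.27) and the ferrireductase Steap3 (1.36 ± 0.36). Steap3 lost its call without thymus replicate 1 (adjusted p = 0.0536), thymus replicate 2 (0.106) or spleen replicate 2 (adjusted p = 0.238).

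Interferon-induced genes were lower in the thymus: 22 of 30 measured (73.3%) were lower, none was higher, and the median was -1.10. Ifit3, which binds viral RNA complexes, read 9.72 and 9.64 in the thymus and 14.44 and 14.78 in the spleen (-4.93 ± 0.36, adjusted p = 2.15e-08). Isg15, a ubiquitin-like modifier, read 10.03 ± 0.15 (SD, n = 2) against 14.27 ± 0.38 (-4.25 ± 0.46, adjusted p = 3.12e-06), Oasl was lower by 4.21 and Ifit2 by 3.16 on the log2 scale (SE 0.50 and 0.48). The groups did not overlap in these genes. Without spleen replicate 2, 13 members were lower.

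These genes are known to be induced through the ISRE, an element bound by transcription factors that interferon activates. The 250 bases before the annotated start (RefSeq, GRCr8) were searched on both strands for its core, GAAA followed by any 2 bases and GAAA again. A promoter was found for 22 of the 30 genes, and 13 held the core (59.1%), against 3.29% of all 27457 promoters. The list was made of genes known to respond to interferon, so this share does not bear on the organ difference. The core stood in 8 of 14 members called lower (57.1%) and in 5 of 8 not called lower (62.5%). All genes called lower, list members included, held it in 4.02% of promoters and all called higher in 1.55%. Genes on the array held it in 3.02%. Promoters are shown for Ifit3 and Irf7, the 2 called members with the core and the largest differences, with the core in capitals. Irf7, a transcription factor of the interferon response, read 11.09 and 11.64 in the thymus and 14.04 and 13.99 in the spleen (-2.65 ± 0.38, adjusted p = 7.18e-05).
Ifit3 (chr1:241527076-241527325, plus strand): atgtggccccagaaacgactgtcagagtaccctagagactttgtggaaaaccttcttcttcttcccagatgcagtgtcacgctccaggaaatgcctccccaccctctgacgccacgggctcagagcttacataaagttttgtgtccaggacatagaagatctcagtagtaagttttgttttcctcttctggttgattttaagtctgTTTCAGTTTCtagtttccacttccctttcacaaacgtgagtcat
Irf7 (chr1:205800024-205800273, minus strand): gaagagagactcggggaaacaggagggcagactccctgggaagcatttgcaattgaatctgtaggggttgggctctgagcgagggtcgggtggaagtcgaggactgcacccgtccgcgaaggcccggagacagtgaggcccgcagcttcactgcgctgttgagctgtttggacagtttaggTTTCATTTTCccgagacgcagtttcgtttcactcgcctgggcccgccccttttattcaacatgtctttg
Both matches read on the strand opposite to the gene, 44 bases before the start of Ifit3 and 69 before that of Irf7.

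The lysosomal genes were searched in the same way for CACGTG, a palindrome at the heart of the element bound by Tfeb and its relatives. It stood in 6 of 26 promoters (23.1%), in 4 of the 8 of genes called higher (50%) and in 2 of the 18 others (11.1%), against 5.79% of all promoters. All genes called higher held it in 9.32% of promoters and all called lower in 8.04%. The promoters of Mcoln1 and Ctsd, the 2 called members with the motif and the largest differences, carried it close to the start. Ctsd, an aspartic protease of the lysosome, was higher by 1.62 ± 0.22 (adjusted p = 4.48e-05).
Mcoln1 (chr12:6358008-6358257, plus strand): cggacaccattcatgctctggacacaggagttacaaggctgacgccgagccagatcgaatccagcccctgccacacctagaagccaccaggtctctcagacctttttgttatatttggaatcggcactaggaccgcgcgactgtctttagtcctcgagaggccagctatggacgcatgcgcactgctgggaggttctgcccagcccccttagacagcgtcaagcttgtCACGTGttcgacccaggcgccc
Ctsd (chr1:206968822-206969071, minus strand): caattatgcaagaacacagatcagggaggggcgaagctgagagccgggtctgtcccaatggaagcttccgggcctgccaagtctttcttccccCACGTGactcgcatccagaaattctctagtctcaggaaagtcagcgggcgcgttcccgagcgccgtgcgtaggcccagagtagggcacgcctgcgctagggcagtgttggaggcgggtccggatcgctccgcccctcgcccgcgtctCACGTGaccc
The nearest match lay 22 bases before the start of Mcoln1 and 10 before that of Ctsd. A match describes these letters only, and binding was not measured.

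Of 19 presentation and costimulation genes, 10 were lower in the thymus and 2 higher (median -1.19). The class II genes RT1-Ba and RT1-Da were not called. The summed signal of the list was 20.42 to 20.51 in the thymus and 20.40 to 20.48 in the spleen. Without Cd74, which made up 46.8% of it, the sum was 19.45 to 19.55 against 19.53 to 19.62. Cd274, which encodes PD-L1, read 8.73 ± 0.38 (SD, n = 2) in the thymus and 11.56 ± 0.15 in the spleen (-2.83 ± 0.42, adjusted p = 0.00011). Cd80, a ligand of Cd28, was lower by 2.26 (SE 0.31), the class II chaperone subunit RT1-DOb by 2.13 (SE 0.26) and the homing receptor Ccr7 by 3.31 (SE 0.52). Cd86, the other Cd28 ligand, went the opposite way (15.26 and 15.76 against 14.52 and 14.46, 1.02 ± 0.24, adjusted p = 0.00601), a call lost without thymus replicate 2 (adjusted p = 0.105). RT1-DMa, which loads peptides, differed by 0.75 ± 0.22 toward the thymus (adjusted p = 0.0305), a call that was lost without thymus replicate 1 (0.213), spleen replicate 1 (0.156) or spleen replicate 2 (adjusted p = 0.101), and in the fit to the 4 macrophage arrays alone (adjusted p = 0.054). Its other cluster differed by 0.62 and was not called. The list had 1 higher member in that fit and when any array was left out.

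**Figure D3:**
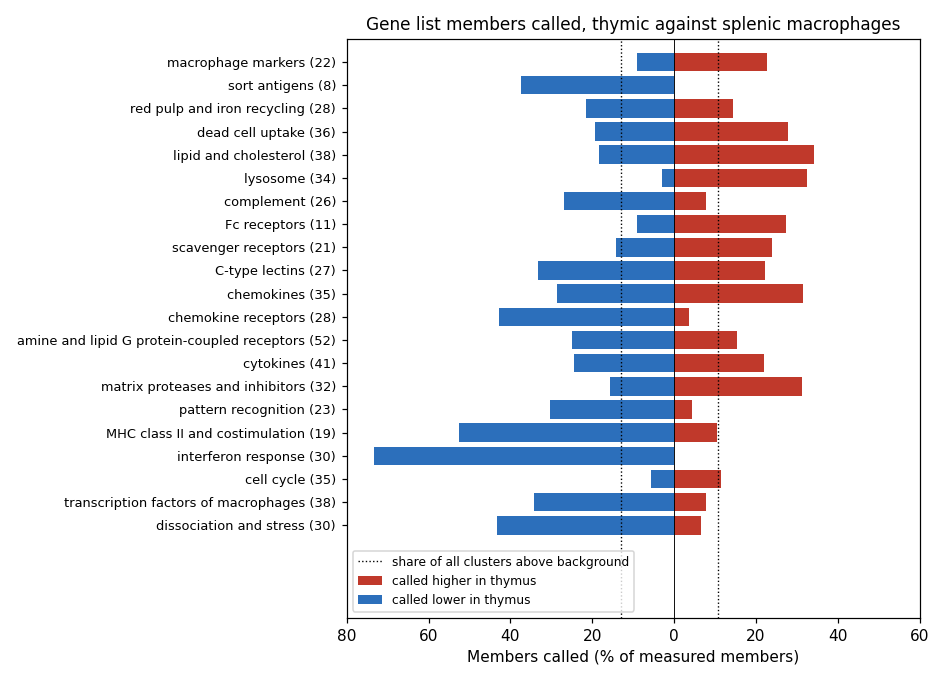
Share of measured members of each gene list called lower (blue, to the left) and higher (red, to the right) in thymic macrophages, in percent, with the number measured in brackets. Dotted lines give the share of all clusters above background, 13.1% lower and 10.7% higher. The interferon response reaches 73.3% lower with none higher, while the lysosome reaches 32.4% higher.

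Chemokine ligands split, 11 of 35 higher and 10 lower (median 0.16). Beside Ccl17 and Ccl12, the thymic side held Cxcl13, the ligand of Cxcr5 (12.31 and 12.09 against 8.13 and 7.69, 4.29 ± 0.50, adjusted p = 7.7e-06). Pf4, platelet factor 4, was also there (3.94 ± 0.35, adjusted p = 2.29e-07). The splenic side held Ccl5, a ligand of Ccr3, which was lower in the thymus by at least 5.09, and Cxcl12, the ligand of Cxcr4 (-3.69 ± 0.32, adjusted p = 1.87e-07). The Cxcr3 ligand Cxcl11 was lower by at least 2.54. Cxcl1, which attracts neutrophils, was lower by 2.22 (SE 0.61, adjusted p = 0.02), a call lost without thymus replicate 1 (adjusted p = 0.275) or spleen replicate 1 (adjusted p = 0.235), and with trend and robust moderation (adjusted p = 0.128).

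Chemokine receptors were lower in the thymus in 12 of 28 and higher in 1 (median -0.65). After Ccr3 the largest were Cxcr5 (by at least 4.29), Cxcr2, a receptor for neutrophil attractants (7.09 and 6.74 against 10.27 and 10.38, -3.41 ± 0.24, adjusted p = 1.88e-08), and Ccr7. The only one higher, Cxcr1, lay below background in both groups and lost its call without thymus replicate 1 (adjusted p = 0.173) or spleen replicate 2 (adjusted p = 0.148).

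Receptors for amines and lipids gave 8 higher and 13 lower of 52, of which 24 lay below background in both groups. With Htr1b, a further serotonin receptor, Htr2b, was higher in the thymus (8.74 and 8.95 against 4.68 and 4.91, by at least 3.04, adjusted p = 1.15e-09). The ADP receptor P2ry12 was higher by 3.08 ± 0.30 and the UDP receptor P2ry6 by 1.44 ± 0.38. P2ry6 lost its call without thymus replicate 1 (adjusted p = 0.105), spleen replicate 1 (0.0577) or spleen replicate 2 (adjusted p = 0.0973). Adenosine receptors went to the spleen, Adora3 (6.39 and 6.53 against 12.01 and 11.88, -5.49 ± 0.40, adjusted p = 2.44e-08) and Adora1 (-2.69 ± 0.28). The sphingosine 1-phosphate receptors S1pr5 (by at least 4.88) and S1pr4 (-2.63 ± 0.25) were also lower in the thymus. The higher members numbered 5 without spleen replicate 1 and 3 without spleen replicate 2.

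Growth factors and cytokines gave 9 higher and 10 lower of 41 (median 0.01). Igf1, insulin-like growth factor 1, read 16.19 and 16.07 in the thymus and 13.41 and 12.97 in the spleen (2.94 ± 0.55, adjusted p = 0.000943), and Gdf15 (2.36 ± 0.33), Pdgfc (2.15 ± 0.32) and the death ligand Tnfsf10 (1.86 ± 0.35) were higher too. Csf1, the growth factor that Csf1r binds, was below background in the thymus (5.41 and 5.45) and read 10.23 and 10.36 in the spleen, lower by at least 4.49 (adjusted p = 2.94e-09). The angiogenic factor Vegfa (-4.96 ± 0.60), the interleukin 1 antagonist Il1rn (-3.38 ± 0.41) and Tgfb3 (-2.20 ± 0.25) were lower as well. The higher members numbered 5 without spleen replicate 2.

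Matrix proteases and their inhibitors leaned toward the thymus with 10 higher and 5 lower of 32 (median 0.16). Besides Mmp12 and Mmp14 these included the urokinase Plau (13.56 and 13.41 against 9.94 and 10.40, 3.31 ± 0.49, adjusted p = 8.68e-05) and Timp2, an inhibitor of matrix metalloproteinases (1.89 ± 0.21). Plaur, the receptor of urokinase, was lower (10.60 and 11.09 against 13.80 and 14.43, -3.27 ± 0.47, adjusted p = 6.77e-05), so ligand and receptor went opposite ways. Fibronectin (Fn1, -3.95 ± 0.40), the sheddase Adam8 (-3.46 ± 0.36) and the elastase inhibitor Slpi (-1.80 ± 0.29) were lower. The higher members numbered 6 without thymus replicate 1.

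Surface lectins gave 6 higher and 9 lower of 27. With Clec10a and Asgr2, Clec4a, which carries an inhibitory motif, was higher in the thymus (2.20 ± 0.35, adjusted p = 0.000214). Clec4e, a receptor for mycobacterial glycolipid and for dead cells, read 9.18 and 8.91 in the thymus and 13.12 and 13.76 in the spleen (-4.39 ± 0.44, adjusted p = 1.24e-06). Clec4m (-3.54 ± 0.44), whose symbol in the deposited table is Cd209b, and the activation antigen Cd69 (-3.40 ± 0.55) were also lower.

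Sensors of microbes were lower in 7 of 23 and higher in 1 (median -0.47). Sting1, the adaptor that responds to cytosolic DNA, was the one higher (11.28 and 11.55 against 8.33 and 8.63, 2.94 ± 0.23, adjusted p = 6.53e-08). Tlr1 (-2.94 ± 0.25), Nod2 (-1.92 ± 0.29), Nlrc4 (-1.65 ± 0.27) and Ifih1 (-1.12 ± 0.21) were lower, and the lower members numbered 4 without spleen replicate 2.

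Complement genes gave 2 higher and 7 lower of 26. The C5a receptor C5ar2 was higher (1.25 ± 0.29, adjusted p = 0.00633), a call lost without thymus replicate 2 (adjusted p = 0.0958) or spleen replicate 2 (adjusted p = 0.0631), which left 1 higher member. The surface inhibitor Cd55 was lower (7.79 ± 0.30 against 12.78 ± 0.08, SD, n = 2, with a difference of -4.99 ± 0.41, adjusted p = 9.68e-08), as were Cr2 (by at least 3.73), the chaperone Clu (-2.06 ± 0.28) and the integrin subunit Itgb2 (-1.97 ± 0.20). Of 11 Fc receptors, 3 were higher and 1 lower, but Fcer1a, among the higher, lay below background on all 4 arrays. Fcgr3a, a low-affinity receptor for IgG, was lower (12.71 and 13.31 against 15.88 and 15.66, -2.76 ± 0.27, adjusted p = 8.25e-07), and Fcmr, the IgM receptor, was higher (2.47 ± 0.48, adjusted p = 0.00145). Without thymus replicate 2 or spleen replicate 1, 1 Fc receptor was higher, and without spleen replicate 1, 2 were lower.

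Transcription factors gave 3 higher and 13 lower of 38 (median -0.38). Ahr, the aryl hydrocarbon receptor, read 11.91 and 11.95 in the thymus and 8.76 and 8.83 in the spleen (3.13 ± 0.25, adjusted p = 6.57e-08), and Egr2 was higher by 2.83 ± 0.37. Nr4a1, which mouse patrolling monocytes need, was lower (13.92 and 13.62 against 16.68 and 16.91, -3.02 ± 0.29, adjusted p = 6.43e-07), with Klf4 (-2.75 ± 0.41), Tcf7l2 (-2.50 ± 0.29) and Cebpb (-2.28 ± 0.35). Id3, the third higher, lost its call without thymus replicate 2 (adjusted p = 0.483), spleen replicate 1 (0.121) or spleen replicate 2 (adjusted p = 0.162), and with all arrays kept under quantile normalization (adjusted p = 0.0605) or in the fit to the 4 macrophage arrays alone (adjusted p = 0.0556). Cell cycle genes gave 4 higher and 2 lower of 35 (17.1%), below the share of 23.8% called among clusters above background. The higher ones numbered 0 without thymus replicate 1 and 1 without either spleen replicate, and the lower ones 0 without thymus replicate 1 or spleen replicate 2 and 1 without thymus replicate 2. Of 8 sort antigens, 3 were lower (Itgae, Itgax and Ptprc, which encodes CD45) and none was higher. The call of Ptprc was lost in the fit to the 4 macrophage arrays alone (adjusted p = 0.0806). Over the alternatives its difference ran from -0.83 to -0.54.

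Markers of other cell types moved with the organ, and in bulk RNA fewer cells of a type and less RNA per cell cannot be told apart. Of 16 monocyte markers, 15 were lower in the thymus, none was higher, and the median was -2.79. Their summed signal (log2 of the sum) was 16.30 to 16.63 on the thymic arrays and 18.86 to 19.03 on the splenic arrays. Ly6c, a surface antigen of monocytes, read 11.10 and 11.96 against 15.65 and 15.92 (-4.25 ± 0.25, adjusted p = 2.03e-09), and the growth factor receptor Csf3r 7.64 and 7.26 against 12.91 and 13.34 (-5.67 ± 0.30). Spn, the sialoglycoprotein CD43, was lower by 4.76 (SE 0.29). The interferon-induced, costimulatory and transcription factor genes lower in the thymus moved with these markers, and the part of monocytes in them was not tested.

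Erythroid markers were lower in 15 of 24 and higher in 1 (Car2, 2.07 ± 0.31), with a summed signal of 11.86 to 11.92 in the thymus and 19.95 to 20.09 in the spleen. On all 4 arrays 10 of the 24 lay below background, so not every lower call is at a measurable level. Among these 10 were the erythroid transcription factors Klf1, Gata1 and Gfi1b and the membrane genes Epb42, Rhag and Sptb. Other genes than globins were also called lower with both splenic arrays above background. Alas2 read 4.71 and 4.94 in the thymus and 9.60 and 9.97 in the spleen (adjusted p = 4.16e-09). Ahsp read 4.05 and 3.85 against 7.03 and 6.08 (adjusted p = 1.02e-05), and Bpgm 7.64 and 7.20 against 8.14 and 8.90 (adjusted p = 0.00644). The median difference of the list was -1.29 as fitted and -0.06 with means below background raised to it. Splenic macrophages also engulf red blood cells, and whether the globin RNA was in engulfed or free cells was not tested.

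Thymocyte and T cell markers were higher in 15 of 28 and lower in 3. The median difference of the list was 1.04 as fitted and 0.17 with means below background raised to it. Rag1, which cuts antigen receptor genes in thymocytes, read 10.97 and 10.64 in the thymic sort and 6.83 on both splenic arrays (3.98 ± 0.35, adjusted p = 2.45e-07), and Cd8b (4.03 ± 0.47), Cd8a (3.38 ± 0.39) and Cd28 (4.50 ± 0.30) were higher. Their summed signal was 17.54 to 17.72 in the thymus and 17.39 to 17.44 in the spleen, but Cd4 made up 84.6% of it and was not called (adjusted p = 0.734). Without Cd4 the sum was 14.17 to 14.20 in the thymus and 15.18 to 15.37 in the spleen, so the sum does not measure thymocyte RNA. Cd3g, Cd247, Zap70, Bcl11b, Rag2, Ptcra, Trat1 and Aqp11 were below background on all 4 arrays, though Aqp11 is counted among the higher members. Lower were Cd7 (-3.21 ± 0.25), Cd2 (-1.77 ± 0.27) and Gzma (by at least 2.28). Whether thymocyte RNA reached the dead cell uptake and lysosomal results was not tested.

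B cell markers were lower in 15 of 18 and higher in 1, though CD45R+ cells were gated out. Cd79a, a subunit of the B cell receptor, read 6.93 and 6.96 in the thymus and 11.62 and 12.19 in the spleen (-4.96 ± 0.69, adjusted p = 5.16e-05), and Bank1 (-4.17 ± 0.39) and Cd22 (-3.94 ± 0.22) were lower too. The summed signal was 14.88 to 15.28 against 15.39 to 15.68, and without Cd37, its largest member, 14.34 to 14.76 against 14.35 to 14.52, which overlap. Cxcr5, Cr2 and the presentation and costimulation genes called lower moved with these markers, and the part of B cells in them was not tested. NK cell markers were lower in 9 of 12 (summed signal 12.86 to 13.43 against 15.88 to 16.05, of which Fcgr3a made up 88%, and 9.52 to 9.74 against 12.87 to 13.05 without it), with Klrk1 at -3.99 ± 0.29 and Prf1 lower by at least 1.19, while Gzmm and Tbx21 were below background on all 4 arrays. Conventional DC markers were lower in 12 of 16 and higher in 1, summing to 12.13 to 12.57 against 13.78 to 14.29. Cd207, langerin, was that one (7.18 and 9.30 against 5.16 and 4.67, by at least 2.43, adjusted p = 3.35e-05), and Cadm1 (-3.00 ± 0.19), Ltb (-2.94 ± 0.28) and Itgae (-2.77 ± 0.23) were lower. Plasmacytoid DC genes gave 1 higher and 4 lower of 11, and plasma cell genes 2 lower of 7, or 1 without thymus replicate 1 or either spleen replicate and in the fit to the 4 macrophage arrays alone.

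Among eosinophil, basophil and mast cell markers, Ccr3 was lower in the thymus while most called members were higher. Of 22 on that list, 10 were higher in the thymus and 3 lower. Ear1, an eosinophil ribonuclease, read 9.03 and 9.47 in the thymus against 5.95 and 5.69 in the spleen (3.43 ± 0.34, adjusted p = 8.67e-07), and the granule protein Prg2 9.29 and 10.78 against 7.59 and 7.94 (2.27 ± 0.36, adjusted p = 0.000175). The mast cell tryptase Tpsab1 was higher by at least 3.37 and the mast cell protease Cpa3 by 1.69 ± 0.30. With Ccr3, only Siglec8 (-2.77 ± 0.28) and Alox15 (by at least 0.94) were lower. Il5ra, the receptor for the eosinophil growth factor, and Gata2, Hdc and Fcer1a were below background on all 4 arrays, though Fcer1a is counted among the higher members. Ccr3 made up 81.9% of the summed signal of the list, which without it was 12.96 to 13.49 in the thymus and 12.85 to 13.12 in the spleen.

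Granulocyte and platelet genes were divided. Neutrophil markers gave 8 higher and 4 lower of 18, with a summed signal of 18.97 to 19.51 against 18.53 to 18.66. Camp, an antimicrobial peptide of secondary granules, was higher (14.50 and 13.38 against 12.47 and 11.42, 2.00 ± 0.35, adjusted p = 0.000477), as was Mmp8 (1.24 ± 0.21). Ceacam1 (-3.03 ± 0.40), Csf3r and Cxcr2 were lower, and the granule genes Elane, Ltf, Prtn3 and Ctsg were below background. The higher members numbered 3 without thymus replicate 1 and 4 without spleen replicate 2. Platelet markers gave 1 higher, Pf4, and 7 lower of 14, among them Clec1b (by at least 1.62), while Ppbp, Gp1ba, Gp6 and Treml1 were below background on all 4 arrays. The means of 7 of the 14 lay below background in both groups, so not every lower call is at a measurable level. With the dim filter 4 were lower. Pf4 made up 96.2% of the summed platelet signal, which without it was 9.30 to 9.50 in the thymus and 11.19 to 11.27 in the spleen.

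Stromal and endothelial genes gave 6 higher and 5 lower of 20. Dcn, the matrix proteoglycan decorin of fibroblasts, read 10.27 and 10.92 in the thymus and 5.51 and 4.63 in the spleen, higher by at least 4.79 (adjusted p = 1.6e-08), and the collagen gene Col3a1 was higher by 1.24 ± 0.25. Pecam1, the junction protein CD31, was lower (6.43 and 6.11 against 12.20 and 11.90, -5.78 ± 0.32, adjusted p = 6.95e-10). The receptors Pdgfra and Pdgfrb and the endothelial genes Stab2, Emcn and Madcam1 were below background on all 4 arrays. Their part in the Pdpn and Stab1 results was not tested. Cdh1, E-cadherin, listed with epithelial cells, was lower in the thymus (13.59 and 13.70 against 17.04 and 16.70, -3.23 ± 0.27, adjusted p = 1.47e-07), and Krt8, Krt18, Foxn1, Aire and Psmb11 were below background on all 4 arrays. Of the 14 epithelial genes 3 were higher, Krt8 and Krt18 among them at these unmeasurable levels, and 1 was lower, and 1 was higher without thymus replicate 2 or spleen replicate 1. The lower stromal and endothelial members numbered 2 without thymus replicate 2 and 3 without either spleen replicate.

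Genes of cell dissociation and stress were lower in 13 of 30 and higher in 2 (median -0.58), with a summed signal of 20.05 to 20.20 in the thymus and 20.60 to 20.79 in the spleen. Fosl2 was lower by 3.27 (SE 0.34), Nr4a3 by 3.22 (SE 0.32) and Nr4a2 by 2.85 (SE 0.23). Several are early response genes that also follow activation, and the part of tissue handling in the splenic results was not tested.

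**Figure D4:**
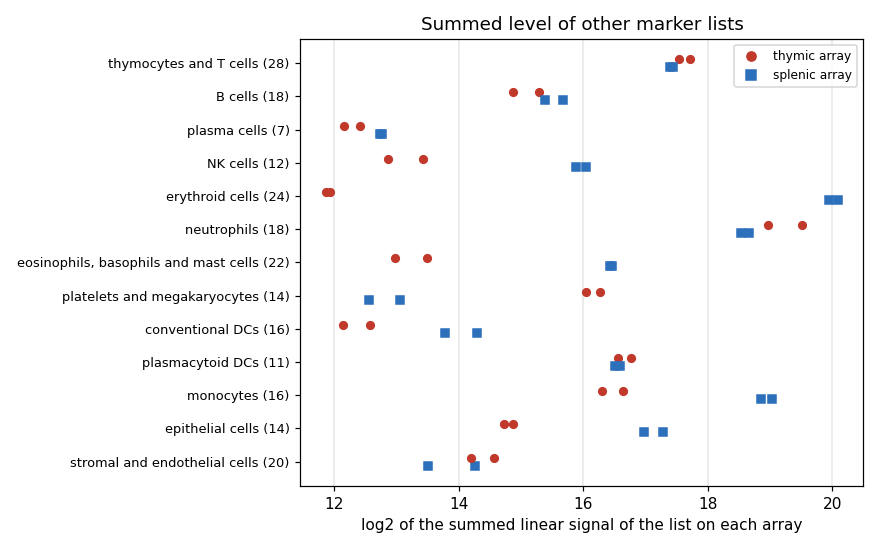
Summed linear signal of the marker lists of other cell types on each array, as log2 of the sum (horizontal axis), with the number of genes measured in brackets. Circles are thymic and squares splenic arrays. Erythroid, monocyte, NK cell, conventional DC, B cell, plasma cell and epithelial lists are higher on both splenic arrays. So is the eosinophil, basophil and mast cell list, which is mostly Ccr3. The T cell and platelet sums are mostly Cd4 and Pf4, and the epithelial sum is 77.2% Cdh1. Erythroid, NK cell and plasma cell sums are mostly Hba1, Fcgr3a and Xbp1, and the B cell sums overlap without Cd37.

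The organ difference of macrophages was then set against that of the DCs, as the mean over 3 DC populations, by an interaction contrast in the same fit. It was above that of the DCs in 987 clusters (4.26%) and below it in 1675 (7.22%), 11.5% in all, and 1640 of the 3186 clusters called in macrophages (51.5%) were among them. Isolation of DCs changed with the organ (a density gradient in the spleen, class II beads in the thymus) while that of macrophages did not, so isolation and cell type cannot be told apart here. The higher calls numbered 637 without spleen replicate 1 and 608 without spleen replicate 2.

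Some genes higher in thymic macrophages were also higher in thymic DCs. Mmp12 differed by 6.93 in macrophages and by 6.93 in the DC mean (adjusted p = 1 for the interaction). It read 13.26 to 18.89 on the 6 thymic DC arrays and 6.97 to 12.63 on the 6 splenic ones. Ccl17 differed more in DCs (7.98) than in macrophages (6.63), with an interaction of -1.35 ± 0.37 (adjusted p = 0.0225). Mmp14 read 12.44 and 12.61 in thymic CD103- cells, above the 10.72 and 10.77 of thymic macrophages, and 6.13 and 6.68 in splenic CD103- cells. In cDC1 and cDC2 of both organs its mean lay below background. For Timd4 (2.89 and 2.66), Gas6 (3.44 and 3.68), Pltp (3.21 and 3.94) and Igf1 (2.94 and 3.49), the last 3 below background in 1 DC group, the interaction did not pass (adjusted p = 0.751, 0.804, 0.454 and 0.692), which does not show that the differences were alike. Its 95% interval was -0.43 to 0.89 for Timd4, -1.10 to 0.61 for Gas6, -1.81 to 0.34 for Pltp, -1.89 to 0.78 for Igf1 and -0.86 to 0.86 for Mmp12.

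Other genes differed more in macrophages. Where a group mean lay below background the fitted size is not exact, and the interaction is given with such means raised to 5.81, a setting added after seeing the data, beside the adjusted p of the fit. In that form Stab1 had an interaction of 6.30 (adjusted p = 1.62e-07), and its highest DC array was a thymic cDC2 array at 9.58. Pdpn (5.72) and Chp2 (5.20) were also highest among DCs in thymic cDC2, at 8.59 and 7.35. Dcn (4.78) reached 6.25 on a DC array. Htr1b, above background in every group (4.97 ± 0.36), read 14.14 and 14.22 in thymic cDC2, a level like that of thymic macrophages, and 10.75 and 10.95 in splenic cDC2. Dnm1 (3.81) read 8.94 and 9.20 in thymic CD103- cells, and with these cells in place of the DC mean its interaction was not called (adjusted p = 0.0877). Clec10a, also above background in every group, had an interaction of 3.35 ± 0.37 (adjusted p = 6.46e-06). It read 13.77 and 14.05 in thymic CD103- cells, near the 14.59 and 14.92 of thymic macrophages. Splenic CD103- cells, at 11.82 and 11.97, lay above splenic macrophages (9.85 and 10.48).

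On the splenic side, Ccr3 (-10.50 with means below background raised to it) was at most 5.94 on any DC array and Hbb (-11.20 likewise) at most 6.29, both near background. Hbb-b1 (-9.34), Hba-a1 (-9.46) and Gfra2 (-8.06) are given in the same form, and Hba1, above background in every group, had -8.65 ± 0.40. Some of the 12 largest splenic differences were seen in DCs too. Rnase6 read 9.87 to 11.90 on the 6 splenic DC arrays and 6.55 to 7.87 on the 6 thymic ones. In CD103- cells Mal read 9.84 and 10.79 in the spleen against 5.13 and 5.47 in the thymus. Sorl1 (9.70 and 10.84 against 5.71 and 6.21) and Clec4d (8.27 and 10.71 against 4.35 and 5.57) did likewise, while Sorl1 went the other way in cDC1 and cDC2. For Cxcr2 and Cdh1 the organ difference was -3.41 and -3.23 in macrophages and 3.40 and 2.77 in DCs, so it had opposite signs (interaction -6.81 ± 0.28 and -6.00 ± 0.31, and for Cxcr2, below background in 3 DC groups, -6.60 with those means raised, adjusted p = 2.1e-11 and 5.08e-10).

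**Figure D5:**
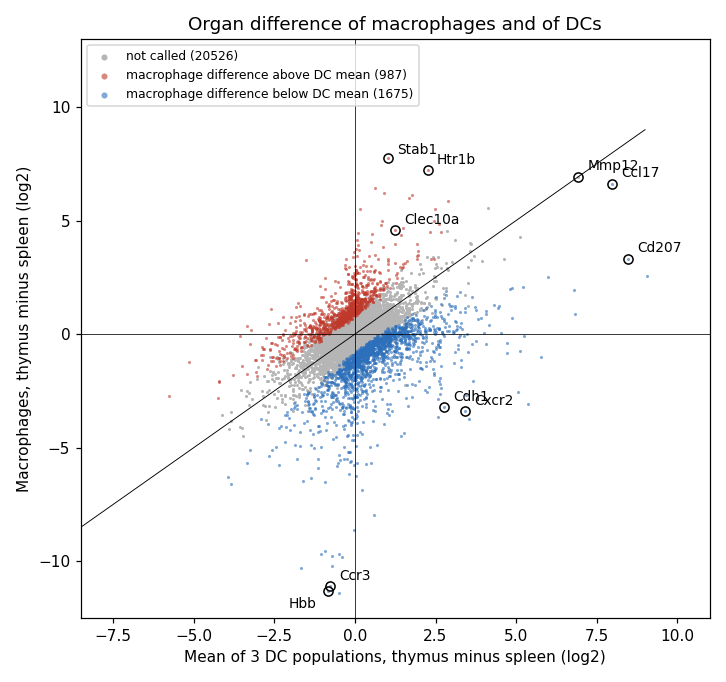
Organ difference (thymus minus spleen, log2) of each cluster in the mean of the DC populations (horizontal axis) and in macrophages (vertical axis). Colours mark the 987 clusters whose macrophage difference was above and the 1675 below that of the DCs, and the diagonal marks equal differences. Mmp12 lies on the diagonal, Stab1 and Htr1b above it, and Cxcr2 and Cdh1 at the lower right, where the signs are opposite.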

How the data were processed

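RNA of 16 sorted samples (8 groups of 2) was read on Clariom S rat arrays. The deposited values are log2 signals, made with the Transcriptome Analysis Console per the submitters' processing notes; version, normalization and background correction are not given in the sources used here. A pair of deposited tables held identical values, used without further scaling or filter. Of 23188 clusters, 21498 carried 1 symbol, 1673 several and 17 none; 23 of 27 symbols turned into dates were restored. A gene with several clusters was represented by the one with the highest mean.

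The fit was by limma 3.58.1 (R 4.3.3), with a mean for each of 8 groups over the 16 arrays (8 residual and 9.21 prior degrees of freedom), two-sided, with Benjamini-Hochberg adjustment over all clusters. Simulated data with known changes were used to test the steps. With 2 arrays a group, the number of arrays limits precision.

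Named genes were 6 markers, the 12 largest called differences per direction, up to 4 called members per direction of each of 34 lists, 6 per direction of the interaction and 13 defining genes. Members and lists were chosen with earlier results of these data known. Of 768 list symbols, 742 were matched. Alternatives were the other deposited table, centring, quantile normalization, a dim filter (13841 clusters), array weights, trend and robust, a 2-fold threshold, the 4 macrophage arrays alone, a replicate block, single DC populations and leaving out each macrophage array. Some named genes are not reported here.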

Additional observations from a re-analysis of the deposited data

Results flagged for a closer look

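The organ difference of macrophages departed from that of the DCs, by the test of the difference itself, in the following named genes, each given as the fitted macrophage minus DC difference in log2 units. Toward the thymus these were Stab1 (6.72), Pdpn (5.81), Dcn (5.36), Chp2 (5.31), Htr1b (4.97), Dnm1 (4.34) and Clec10a (3.35). Toward the spleen they were Hbb (-10.48), Ccr3 (-10.30), Hbb-b1 (-9.52), Hba-a1 (-9.41), Hba1 (-8.65) and Gfra2 (-8.59). Of these, Htr1b, Clec10a and Hba1 lay above background in every group. The others rest on at least 2 of 8 group means below it, so their fitted sizes and order are not exact. With such means raised to background, Stab1 was at 6.30, Pdpn at 5.72, Dcn at 4.78, Chp2 at 5.20 and Dnm1 at 3.81, and Hbb was at -11.20, Ccr3 at -10.50, Hbb-b1 at -9.34, Hba-a1 at -9.46 and Gfra2 at -8.06. Mmp12 was the one marker without such a difference. Groups of 2 arrays are too small for a test of single outlying arrays.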

How the results depend on the processing

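Outside the arrays left out, the 2-fold threshold and single DC populations, the alternatives gave 1354 to 1534 clusters higher and 1608 to 1827 lower in thymic macrophages, and 987 to 1165 and 1532 to 1780 for the interaction with the DC mean. With an array left out the ranges were 833 to 1074 and 1251 to 1323, and 608 to 748 and 1202 to 1321. A threshold of at least 2-fold left 910 higher, and CD103- cells alone in place of the DC mean gave 545 and 1030 for the interaction. Whether replicate numbers pair the samples is not in the labels. Deviations of the macrophage replicates of the 2 organs correlated by 0.08 across clusters, and over 0.1 in 4 of 28 pairs of groups (highest 0.182). With 2 arrays a group these correlations cannot decide it. With the replicate block on all arrays 1503 were higher and 1804 lower, with it on the 4 macrophage arrays 1354 and 1740, and for the interaction 1054 and 1754. With the block on the 4 macrophage arrays the calls of Vcam1 (adjusted p = 0.0666), RT1-DMa (adjusted p = 0.0665) and Id3 (adjusted p = 0.0531) were lost. Of 194 called named genes, 162 kept their call under every alternative run, 20 lost it only with an array left out and 12 under other settings too, and no named gene reversed. Of 884 list counts under these alternatives, 821 lay within 1.5 times the reported count and 41 of the 63 others came with an array left out. No scaling moved the median difference of all clusters by over 0.1. Limits are the 2 arrays a group, an unstated normalization, and the 46.8% of clusters below background in both macrophage groups, where differences are not measurable.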

Other observations

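Some of the largest differences lay among neighbouring genes of families, seen after the values were known. In the RefSeq order of GRCr8 genes, Ccr3 is followed by Ccr1l1 and Ccr2 and preceded by Ccr1 and Xcr1. Ccr2, the monocyte chemokine receptor, read 9.82 and 10.78 in thymic and 12.25 and 13.36 in splenic macrophages (-2.50 ± 0.56, adjusted p = 0.00463), and Xcr1, a receptor of type 1 DCs, 9.92 and 10.59 against 11.24 and 11.83 (-1.28 ± 0.40, adjusted p = 0.0411). Ccr1, beside Ccr3, read 12.67 and 12.59 against 12.27 and 12.66 and was not called (adjusted p = 0.846).

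In the Clec4 family of lectins the direction changed along the run. Clec4a1 (16.15 and 16.29 against 16.43 and 16.28), Clec4a3 and Clec4a2 were not called (adjusted p = 0.826, 0.264 and 0.119). The next gene, Clec4a, was higher in the thymus, and the 3 after it, Clec4b2 (-2.71 ± 0.35, adjusted p = 2.51e-05), Clec4d and Clec4e, were lower. Shared signal between related clusters was not tested.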
